A study of Homo sapiens with 2 samples.

Results

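The subunits of the respiratory chain and of ATP synthase were examined in HCT116 cells with and without an excess of HOXA5 short RNA. They were chosen by gene symbol: symbols starting with NDUFA, NDUFB, NDUFC, NDUFS or NDUFV for complex I, the SDH genes A to D for complex II, symbols starting with UQCR and the gene CYC1 for complex III, symbols starting with COX4 to COX8 for complex IV, and symbols starting with ATP5 for ATP synthase. Of the 50599 probes on the array, 109 probes for 86 genes carried a messenger RNA accession with such a symbol, out of 21613 genes named. Of these, 103 probes for 81 genes were well above background on both arrays and were compared. The other 6 probes were below that level on both arrays, and 0 were above it on 1 array only.

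HCT116, a standard line of human colon cancer cells, was used throughout. One culture carried the pEB vector alone (mock, labelled as control) and the other carried pEB expressing HOXA5 short RNA. This untranslated transcript of the HOXA6-HOXA5 locus lacks the first exon of HOXA5. Both were put under blasticidin selection for 2 weeks, and whether the selected cells were a pool or a clone is not given in the sources used here. Total RNA was labelled with Cy3 and hybridized in a single color to an Agilent human whole-genome array, with 1 array per group, so no difference below was tested and none has a replicate check.

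Differences are log2 of the processed signal of HOXA5 short minus that of mock, after each array was divided by its own 75th percentile. This percentile was 35.6 for mock and 44.0 for HOXA5 short. The text on treatment given for the mock sample also mentions the vector with HOXA5 short, so the groups were taken from the genotype labels. The HOXA5 probe, which checks the labels, gave a signal of 39.4 (scanner error 4.32) in mock cells against 346 (34.6) with HOXA5 short RNA, which is 2.83 in log2. Over all 11994 genes compared the median difference was -0.02 with an SD of 0.29. For probes printed in 10 spots, the SD of the difference of a single spot was 0.19 (590 probes), and 0.12 for the 87 of them with mock signals of 1000 or more. After scaling, the 7 spike-in RNAs detected had a median difference of -0.47, and all 7 lay below 0. Of 7 epithelial markers, 7 were detected on both arrays, among them KRT19 and EPCAM, and CLDN4 stood apart with a difference of -1.10 from a spot in an uneven zone of the grid. Of 10 markers of other cell types 3 were detected: DES, ACTA1 and the fibroblast collagen COL1A1 (16.7 in mock cells and 22.6 with HOXA5 short RNA). Signals of the 3 ran from 9.54 for ACTA1 in mock cells to 84.9 for DES with HOXA5 short RNA. The leukocyte, endothelial, liver and glial markers PTPRC, CD3E, PECAM1, VWF, ALB and GFAP were not detected, nor was the other fibroblast collagen, COL3A1.

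The respiratory chain, in the inner mitochondrial membrane, passes electrons from nutrients to oxygen and pumps protons across the membrane as it does so. ATP synthase lets the protons flow back to make ATP. Complex I takes electrons from NADH and complex II, which is also the succinate dehydrogenase of the citric acid cycle, takes them from succinate. Complex III hands them to cytochrome c and complex IV, cytochrome c oxidase, to oxygen. Complexes I, III and IV and ATP synthase combine subunits from nuclear genes and from mitochondrial DNA, while complex II is built from nuclear genes only. The 13 subunits encoded by mitochondrial DNA were matched to no accession on the array and were not analysed here.

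No subunit gene differed 2-fold between the arrays. Of the 81 genes, 0 had a 2-fold higher value with HOXA5 short RNA, against 0.642% of all genes compared, and 0 had a 2-fold lower one, against 0.258%. At 1.5-fold, 1 gene was higher (COX6B2), against 2.78% of all genes, and 0 were lower, against 1.6%. By more than the SD of a single spot, 7 genes were higher, against 16.5% of all genes, and 11 were lower, against 18.9%. The differences ran from -0.44 (NDUFB10) to 0.90 (COX6B2) and had an SD of 0.19, smaller than the 0.29 of all genes. Their median was -0.06. Genes below 0 numbered 51 (63.0%) and genes above 0 numbered 30, where 54.5% of all genes lay below 0 and 45.5% above. The median of the subunits relative to that of all genes was -0.04. Scaling to the median or to the spike-ins shifted every gene alike, by 0.10 and 0.47, which placed the subunit median at 0.03 and 0.40 and left the relative value as it was. With normexp background correction the subunit median was 0.09, or 0.06 relative to all genes, and with no filter on low values it was -0.07, or 0.04 relative to all genes. In RNA from whole cultures, less of a message per cell and fewer cells that hold it cannot be told apart.

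**Figure D1:**
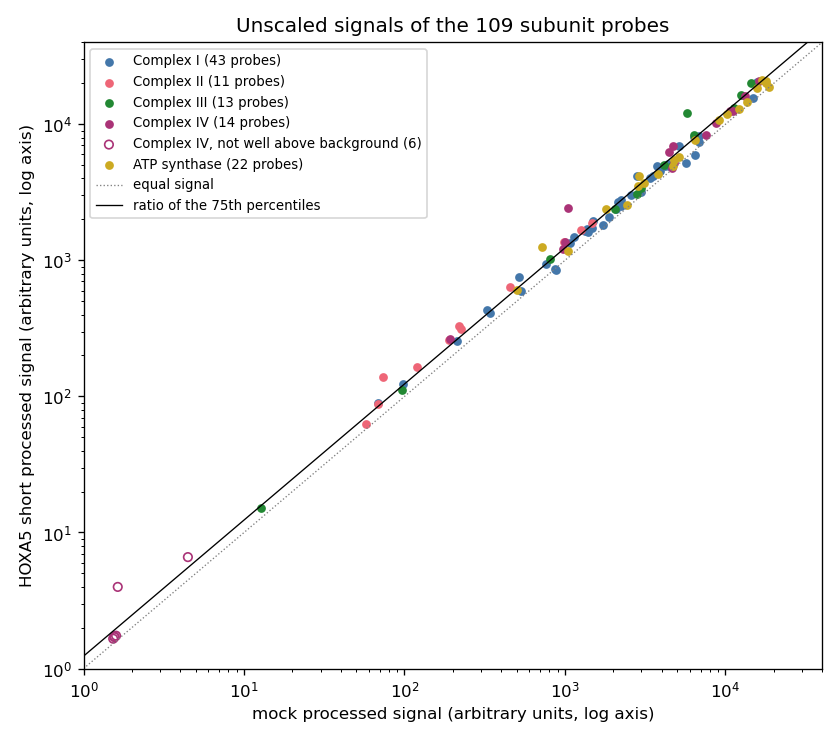
Processed signal of each of the 109 subunit probes in mock cells (x) and with HOXA5 short RNA (y), before scaling, both on log axes in arbitrary units. Filled points are the 103 compared probes and open points the 6 below detection, the solid line is the ratio of the 75th percentiles of the arrays, and most filled points lie along it, with COX6B2 and 1 UQCRH probe above.

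These probes were among the bright ones. The mock signal of the 103 compared probes ran from 12.8 to 18611. Its median was 2913, against 90.4 over all compared probes. The signal with HOXA5 short RNA ran from 15.1 to 21136, with a median of 3415 against 111 over all compared probes. Of the 103 probes, 76 had a mock signal of 1000 or more. Among all 17938 compared probes, 1489 had a mock signal from 1000 to 4000 and 700 a mock signal of 4000 or more. Before scaling, the probes dimmer on the HOXA5 short array were those of NDUFB10, NDUFA8 and NDUFA6. That array was brighter as a whole (75th percentile 44.0 against 35.6). The share of all compared probes that were brighter on it was not counted, so the unscaled direction is not read as a trait of the subunits. The error that the scanner software gives for a log2 difference had a median of 0.20 over these probes. Counted by probe, 0 of 103 reached 2-fold in either direction (against 1.06% of all compared probes upward and 0.318% downward), 3 were at least 1.5-fold higher (against 3.95%) and 0 as much lower (against 2.31%). Probes above 0 numbered 43 (against 46.4% of all) and probes below 0 numbered 60 (against 53.6%). By the scanner error, 22 probes lay more than 1 error from 0 (against 35.1% of all compared probes) and 8 more than 2 errors (against 11%). The 8 were probes of NDUFB10, NDUFA8, NDUFS5 and COX7C on the lower side and of COX6B2, UQCRH, SDHD and ATP5MGL on the higher side. For NDUFS5 and COX7C, printed in 10 spots, the error was averaged over spots as if these were independent, to 0.065 and 0.068. Their spots share the same RNA and labeling, and their differences of -0.23 and -0.15 lie within 2 errors of the median size of 0.20.

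**Figure D2:**
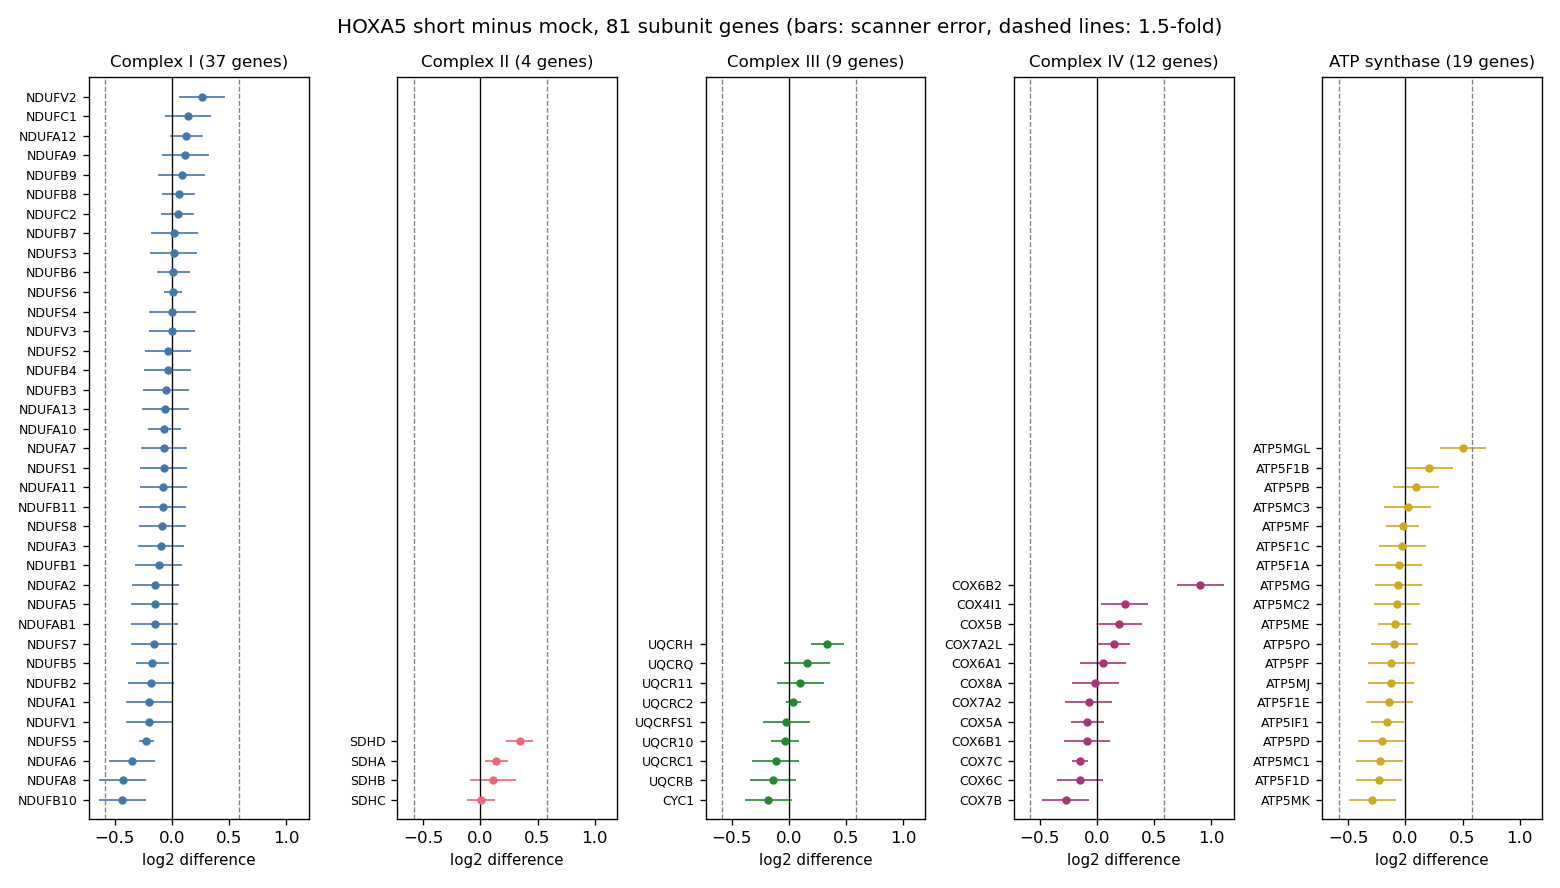
Log2 difference, HOXA5 short minus mock, of the 81 subunit genes compared, in a panel for each complex. Points are means over the probes of a gene and dashed lines are 1.5-fold. Bars are the error given by the scanner software (1 array per group), made smaller where spots or probes were averaged, as if these were independent. Only COX6B2 lies past a dashed line, and all 4 genes of complex II lie at or above 0.

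By complex, the median difference was -0.07 for the 37 genes of complex I, 0.12 for the 4 of complex II, -0.02 for the 9 of complex III, -0.04 for the 12 of complex IV and -0.09 for the 19 of ATP synthase. Genes below 0 numbered 24 of 37 (64.9%), 0 of 4, 5 of 9 (55.6%), 7 of 12 (58.3%) and 15 of 19 (78.9%), against 54.5% of all genes. The median of complex II was above 0 under each of the 13 alternatives that gave a median (0.11 to 0.59, or 0.14 to 0.23 above the median of all genes). The medians of the other complexes rose above 0 after normexp background correction, and also after spike-in or median scaling, each of which moves all genes alike. Relative to the median of all genes, complexes I and IV and ATP synthase stood at -0.05, -0.02 and -0.07 and complex III at 0.001. With normexp background correction these values were 0.04, 0.12, 0.03 and 0.06, and with no filter on low values 0.04, 0.03, 0.01 and 0.08. Counting probes moved complex IV to 0.02. Subunit probes with mock signals of 4000 or more had a median of -0.08 (42 probes) and those from 50 to 200 a median of 0.08 (9 probes), while the median of all compared probes in those ranges was -0.01 and -0.02. Of the 9 probes from 50 to 200, 5 were complex II probes, and the other 4 had a median of 0.06. The part of brightness in the order of the complexes was not tested.

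The promoters of many of these genes are known to hold sites for the nuclear respiratory factor NRF1, for ETS factors such as GABPA, and for YY1, which is why their windows were searched. RefSeq promoters of GRCh38.p14, from 250 bases before to 50 after a start site, were given for 70 of the 86 genes (83 promoters). The NRF1 letters GCATGCGC, on either strand, were in 18.1% of these promoters (15), against 3.05% of all 35116 promoters and 4.72% of promoters of compared genes. The ETS letters CCGGAAG were in 26.5% (22), against 10.3% and 17.3%. The YY1 letters AAGATGGC were in 15.7% (13), against 2.89% and 4.92%. By gene, the NRF1 string was found for 20% of the 70 genes, against 6.41% of the compared genes with promoters given. The ETS string was found for 30%, against 22.9%, and the YY1 string for 17.1%, against 6.68%. The median difference was -0.06 with the NRF1 string (14 compared genes) and -0.07 without it (53), -0.01 with the ETS string (21) and -0.08 without it (46), and -0.08 with the YY1 string (12) and -0.06 without it (55).

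Windows of 30 bases are shown for some of the matches in genes of complex II, whose gene means were all above 0 (SDHC only by 0.01). Others are from named genes at the upper or lower end of the other complexes as reported. Not every match is shown: NDUFA6 also held the NRF1 string and COX5B the ETS string. Capitals mark the match, which is the reverse complement of the string where it lies on the opposite strand, and each window is written 5′ to 3′ on the strand of the gene.
SDHB, NRF1 string, chr1:17054214-17054243, minus strand: aagccaaatggGCATGCGCcgctactgcgc
SDHB, ETS string, chr1:17054142-17054171, minus strand: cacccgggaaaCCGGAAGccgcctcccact
SDHB, YY1 string, chr1:17054004-17054033, minus strand: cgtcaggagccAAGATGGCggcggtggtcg
SDHD, NRF1 string, chr11:112086754-112086783, plus strand: gctgtgtttgcGCATGCGCgacgggtgtgc
SDHD, ETS string on the opposite strand, chr11:112086785-112086814, plus strand: ccgcctctcgaCTTCCGGttcacccagcat
NDUFA8, NRF1 string, chr9:122159763-122159792, minus strand: ttgccggatgcGCATGCGCaggcgccgtgt
NDUFA6, YY1 string, chr22:42090729-42090758, minus strand: gatgctttggcAAGATGGCggggagcggcg
UQCRH, ETS string on the opposite strand, chr1:46303641-46303670, plus strand: agtgtgccgcaCTTCCGGccagatcgccgg
COX4I1, ETS string on the opposite strand, chr16:85799686-85799715, plus strand: ggccttgctctCTTCCGGtcgcgggacacc
COX5B, NRF1 string, chr2:97645915-97645944, plus strand: ggcagagctggGCATGCGCaatttccgccc
ATP5MK, ETS string, chr10:103396617-103396646, minus strand: gtgcaattcttCCGGAAGtgtgggcgggct
SDHB was the member of complex II with all 3 strings. In SDHD and NDUFA8 the NRF1 string partly overlaps its own reverse complement, so some bases belong to matches on both strands. The same holds for the ETS string in ATP5MK. The promoters given for SDHA, COX6B2, NDUFB10 and COX7B held none of these strings in this window. A match is a description of the letters only.

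Complex I was represented by all of its 37 chosen genes. The 7 core subunits among these nuclear genes belong to the conserved part that takes electrons from NADH to the quinone. They had a median of -0.07 and ranged from -0.20 to 0.26. Subunits encoded by mitochondrial DNA are not among them. The 30 supernumerary subunits, which surround the core, also had a median of -0.07 and ranged from -0.44 to 0.14. Of these, 19 of 30 were below 0, against 54.5% of all genes. The core subunits compared and the surrounding ones had like medians.

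The lowest values of complex I came from 3 supernumerary subunits. NDUFB10, a subunit of the membrane arm, had a signal of 5717 in mock cells and 5221 with HOXA5 short RNA, a difference of -0.44. NDUFA8, also of the membrane arm, gave 6478 and 5932, a difference of -0.43. NDUFA6, a subunit of the matrix arm, gave 877 and 849.6, a difference of -0.35. None of these reached 1.5-fold. The spots around NDUFA8 were themselves low, with a median of -0.35 over 25 well-measured neighbors, and NDUFA8 stood at -0.08 once that local median was subtracted. For NDUFB10 and NDUFA6 the neighbors had medians of -0.16 (31 spots) and -0.05 (31 spots), and the values after subtraction were -0.28 and -0.30.

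The highest values of complex I were smaller. NDUFV2, a core subunit with an iron-sulfur cluster, gave 2832 and 4191, a difference of 0.26, but its spot lay in an uneven zone in which 4 of 29 neighbors differed 2-fold. The neighbors had a median of 0.28, and NDUFV2 stood at -0.02 once this was subtracted. NDUFC1, a small subunit of the membrane arm, gave 5113 and 6952, a difference of 0.14. NDUFA12 had 2 probes, which gave 759.9 and 936 (difference -0.004) and 515 and 756 (difference 0.25), so its mean of 0.12 rested on 1 of them. NDUFV1, the core subunit that binds the flavin and oxidizes NADH, gave 2974 and 3195, a difference of -0.20, and lay within the scanner error of 0.20.

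Complex II was the group in which all gene means lay on the same side of 0, though SDHC was near 0 (0.01). SDHA, the flavoprotein subunit that oxidizes succinate, was measured by 4 probes. Their mock signals were 1477, 457, 225 and 119 and their signals with HOXA5 short RNA 1886, 633, 315 and 164. The differences were 0.05, 0.17, 0.18 and 0.16, all above 0 and each within the scanner error. SDHB, the iron-sulfur subunit, had 1 probe, which gave 1252 and 1669, a difference of 0.11. Some SDHA transcripts have near-identical pseudogene copies, so its probes may share signal with them.

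The membrane anchors of complex II, SDHC and SDHD, bind the quinone and a heme. For SDHC the probes disagreed: the brightest gave 986 and 1355 (difference 0.15), another 68.8 and 87.6 (0.04) and the dimmest 57.3 and 62.2 (-0.18). Their mean of 0.01 fell to -0.01 with scaling over detected probes and with quantile normalization. For SDHD the probes gave 190.1 and 260.2 (difference 0.15), 219 and 328 (0.28) and 73.7 and 139 (0.61). The last of these was 1.53-fold higher, and its spot lay in an uneven zone where 3 of 26 neighbors differed 2-fold. The mean of SDHD was 0.34, and 0.21 without that spot. In all, 10 of the 11 complex II probes were above 0, with a median of 0.15. The other subunit probes no brighter than the brightest of complex II had a median of 0.001 and 14 of 26 above 0, and all compared probes in the same range of mock signal had a median of -0.02 and 44.9% above 0. This difference between complex II and the rest was not tested.

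Complex III had values on both sides of 0. Its catalytic and core subunits, CYC1 (cytochrome c1), UQCRFS1 (the Rieske iron-sulfur protein), UQCRC1 and UQCRC2, had a median of -0.07 and ranged from -0.18 to 0.04. The lowest was CYC1, with 2807 and 3059, a difference of -0.18. The 5 small subunits had a median of 0.10 and ranged from -0.14 for UQCRB to 0.34 for UQCRH. UQCRH, the acidic hinge protein that helps cytochrome c dock, was the gene whose probes differed most. One probe gave 5769 in mock cells and 12049 with HOXA5 short RNA, a difference of 0.76, and the other gave 11249 and 13095, a difference of -0.08. Both probes carry the same accession. A near-identical gene, UQCRHL, had no probe of its own among the named ones, so the files do not show which transcripts each probe reads. Among the neighbors of the higher spot 2 of 27 differed 2-fold, short of the 10% that defines an uneven zone.

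**Figure D3:**
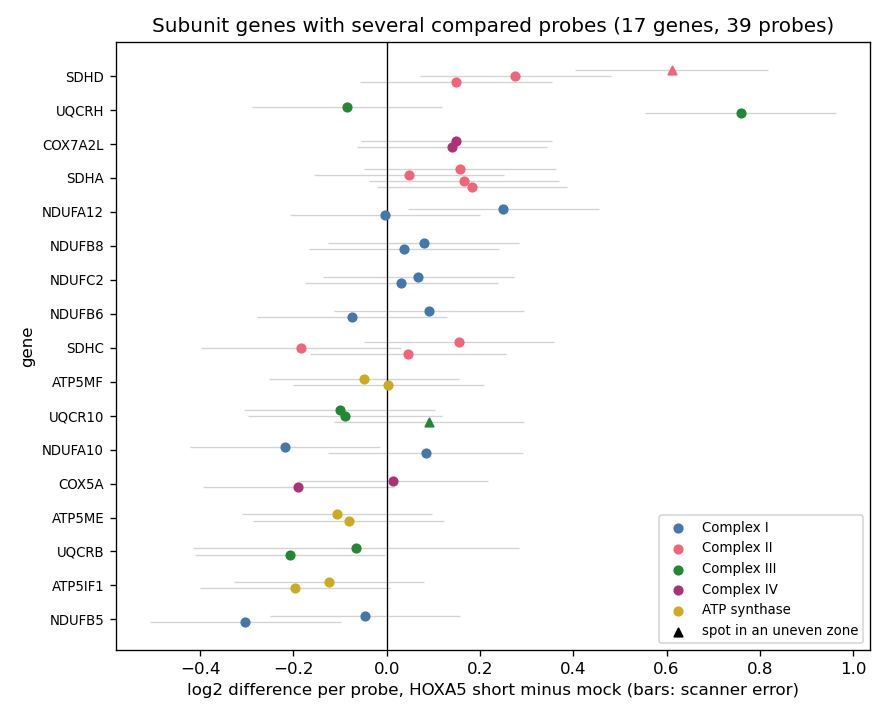
Log2 difference of each of the 39 probes of the 17 subunit genes with several compared probes, ordered by the mean of the gene. Bars are the scanner error and triangles mark spots in uneven zones. The probes of UQCRH lie at -0.08 and 0.76, while those of COX7A2L lie at 0.14 and 0.15.

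Probes of the same gene were a check that the subunits offered in number. Of the 17 genes with several compared probes, 10 had all probes within the SD of a single spot, and 8 had probes on both sides of 0. The matching shares over all genes with several probes were not counted. Subunit probes were brighter than most (median mock signal 2913 against 90.4), so these counts are not read as a trait of the subunits. Only UQCRH spanned more than 0.5. At the other end COX7A2L, which joins complexes III and IV into supercomplexes, gave 0.14 with a probe that read 999 and 1359 and 0.15 with a probe that read 192 and 262. ATP5ME, a small membrane subunit of ATP synthase, gave -0.08 and -0.11, and ATP5IF1 gave -0.20 and -0.12.

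Complex IV contained the largest difference among the 81 genes and the undetected genes. COX6B2, the form of subunit 6B known from testis, had 2 probes for the same accession. One gave 1048 (error 105) in mock cells and 2422 (242) with HOXA5 short RNA, a 1.87-fold higher signal and a difference of 0.90. The other was at the level of its error on both arrays, 1.56 (1.56) and 1.70 (1.71), and was not well above background. The probes for this gene thus disagreed on whether it was detected, and the higher value rests on 1 spot, around which 2 of 24 neighbors differed 2-fold, with a median of -0.04. The broadly expressed form COX6B1 gave 8771 and 10185, a difference of -0.09.

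The other forms of complex IV known from particular tissues were not detected. COX4I2, known from lung, gave 1.59 and 1.74, COX6A2 of heart and skeletal muscle 1.56 and 1.72, and COX7A1, also of heart and skeletal muscle, 1.53 and 1.66. COX7B2 gave 1.63 and 3.98, and COX8C 4.47 and 6.59. None of these was well above background on either array. The broadly expressed forms were all detected: COX4I1 with 4745 and 6928 (difference 0.24), COX6A1 with 16299 and 20847 (0.05), COX7A2 with 10691 and 12547 (-0.07), COX7B with 4671 and 4765 (-0.28) and COX8A with 13295 and 16245 (-0.01). These HCT116 cells gave signal for the broadly expressed forms on both arrays, and of the forms known from particular tissues for COX6B2 alone, by 1 of its probes.

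Among the other complex IV genes, COX7B was the lowest. COX6C followed with 7553 and 8401, a difference of -0.15, and COX7C with -0.15. COX5B, which lies on the matrix side of the enzyme, gave 4475 and 6306, a difference of 0.19, but its 20 neighbors had a median of 0.36, and it stood at -0.17 once this was subtracted. The subunit long named NDUFA4 is listed in the current gene table as COXFA4 and fell outside the symbols chosen. Its values, 8970.4 and 10003 with a difference of -0.15, lay within the range of complex IV.

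ATP synthase had the largest share of genes below 0 among the complexes with more than 4 genes (78.9%, against 54.5% of all genes). The 5 genes of its catalytic head and central stalk (ATP5F1A to ATP5F1E) had a median of -0.06, the 3 genes for the c-ring (ATP5MC1 to ATP5MC3) -0.08, the 4 genes of the peripheral stalk -0.11 and the 5 genes for small membrane subunits (ATP5ME, ATP5MF, ATP5MG, ATP5MJ and ATP5MK) -0.09. Every one of the last 5 was below 0, from -0.29 to -0.02. The lowest was ATP5MK, which helps ATP synthase form dimers, with 18611 and 18803, a difference of -0.29. ATP5F1D, the delta subunit of the central stalk, gave 2437 and 2561 (difference -0.23), and ATP5MC1, a source of the c subunit, 4695 and 4957 (-0.23). ATP5IF1, the inhibitor that blocks ATP hydrolysis by the enzyme, had probes with 13561 and 14608 and with 3782 and 4286, and a mean of -0.16. All of these were brighter on the HOXA5 short array before scaling, by less than the ratio of the 75th percentiles.

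On the higher side of ATP synthase stood ATP5MGL, a gene closely related to ATP5MG, with 722 and 1264, a 1.42-fold higher signal and a difference of 0.50. None of its 27 neighbors differed 2-fold, and their median was -0.19. ATP5MG itself, a small membrane subunit, gave 15651 and 18491, a difference of -0.06. ATP5F1B, the beta subunit that holds the catalytic sites, gave 2913 and 4156 (difference 0.21), and ATP5PB, a peripheral stalk subunit, 1807 and 2377 (0.09). The probes for ATP5MGL and ATP5MG may share transcripts, since the genes are closely related and the files give no probe sequences.

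**Figure D4:**
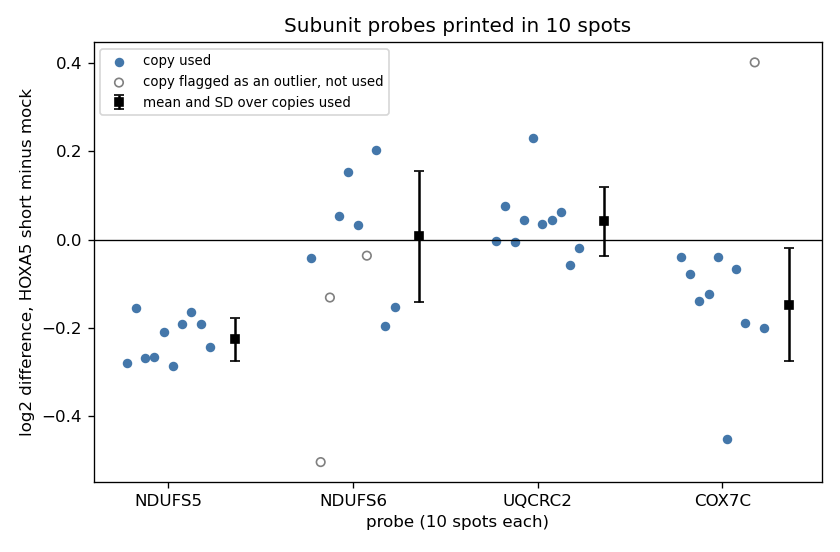
Log2 difference of each copy of the 4 subunit probes printed in 10 spots. Open points are copies flagged as outliers by the scanner software and not used, and squares with bars are the mean and SD over the copies used. All 10 copies of NDUFS5 and all 9 used copies of COX7C lie below 0, the flagged copy of COX7C lies at 0.40, and the copies of NDUFS6 and UQCRC2 lie on both sides.

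For 4 subunits, probes printed in 10 spots showed how well a value repeated within an array. The copies share the same RNA and the same labeling, so their spread holds no spread between cultures. NDUFS5, a subunit of complex I, had mock signals from 13283 to 16217 (median 14883) and HOXA5 short signals from 14719 to 16853 (median 15526). Its difference was -0.23 ± 0.05 (SD over 10 copies), below 0 in all 10 copies. COX7C had mock signals from 10499 to 11871 (median 11281) and HOXA5 short signals from 10277 to 13820.2 (median 12839), and a difference of -0.15 ± 0.13 (SD over 9 copies), below 0 in all 9. The remaining copy of COX7C, flagged by the scanner software and not used, gave 7862 and 12820.0, a difference of 0.40. The copies of the other probes were split. UQCRC2 had mock signals from 675 to 860.2 (median 818) and HOXA5 short signals from 976 to 1049 (median 1033), and a difference of 0.04 ± 0.08 (SD over 10 copies), with 6 copies above 0. NDUFS6 had mock signals from 1933 to 2481 (median 2282) and HOXA5 short signals from 2592 to 2974 (median 2749), and a difference of 0.01 ± 0.15 (SD over 7 copies), with 4 above 0, which became -0.03 without the copy in an uneven zone. The 3 flagged copies of NDUFS6, also not used, gave -0.50, -0.13 and -0.04. The SDs over copies, from 0.05 to 0.15, stood on either side of the 0.12 of bright probes in general. Among the alternatives, NDUFS5 was above 0 only with scaling to the spike-ins (0.24), and COX7C with that scaling (0.32) and with normexp background correction (0.01). Relative to the median of all genes, both were below 0 under each alternative.

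**Figure D5:**
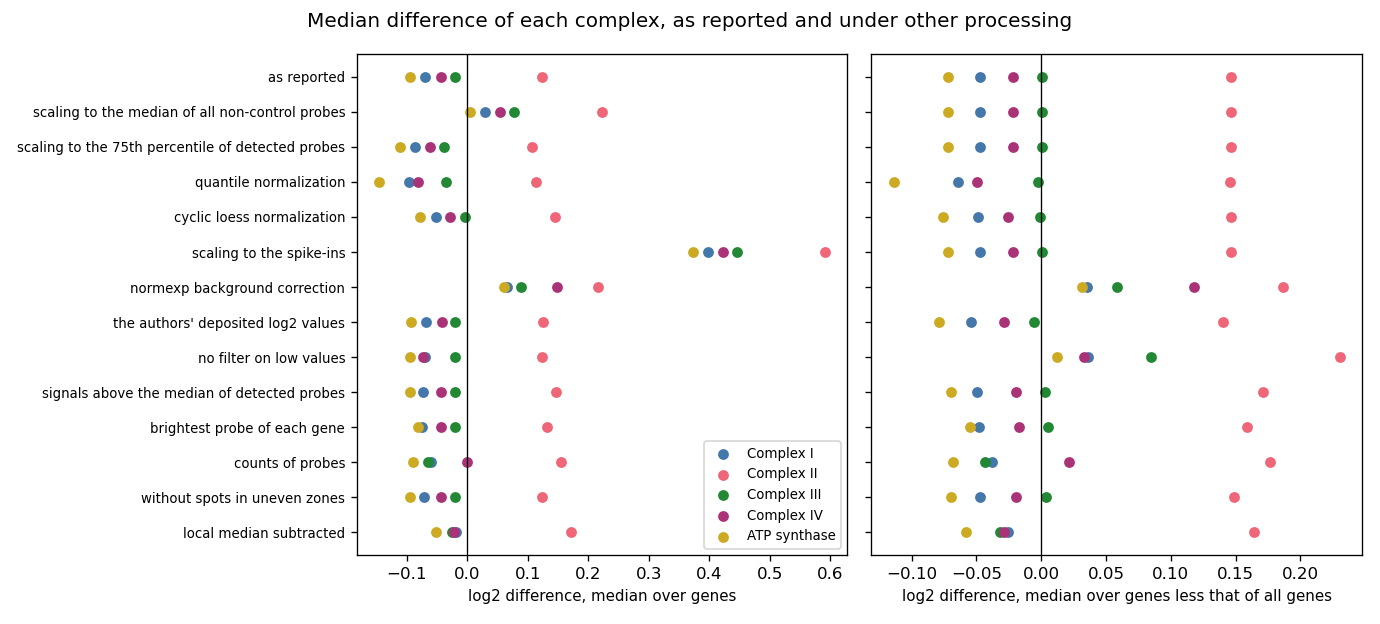
Median log2 difference of the genes of each complex (left) and the same less the median of all genes (right), as reported (top) and under each alternative processing. Complex II lies to the right of 0 in every line of both panels. In the right panel complexes I and IV and ATP synthase lie to the left of 0 except with normexp background correction, with no filter on low values and, for complex IV, when probes are counted.

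Genes that build or feed the complexes were described beside the subunits. Of 53 assembly factors 49 were compared, with a median of 0.03 and 28 above 0 (57.1%, against 45.5% of all genes). Of these 49, 3 were at least 1.5-fold higher (against 2.78% of all genes) and 0 lower (against 1.6%). COA6, which delivers copper to complex IV, gave 369 and 843 (difference 0.89). NDUFAF5, a complex I assembly factor, gave 114 and 226 (0.68), and TACO1, which promotes translation of a mitochondrially encoded complex IV subunit, gave 114 and 221 (0.65) from a spot in an uneven zone. The lowest was NDUFAF6, another complex I assembly factor, with a mean of -0.44 over probes at -0.74 and -0.15. Each of the 3 higher genes rested on 1 probe.

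Electron carriers and coenzyme Q synthesis genes had a median of -0.05 (16 of 17 compared, 4 above 0), from COQ8A (81.8 and 88.8, difference -0.19) to COQ8B (20.0 and 29.0, difference 0.23). CYCS, which encodes cytochrome c, had 3 probes and a mean of -0.13. Pyruvate dehydrogenase and citric acid cycle genes had a median of -0.02 (17 of 18 compared, 7 above 0), from DLD (17.8 and 18.4, difference -0.26) to PDHB (216 and 366, difference 0.46). Of the genes in these lists 0 reached 1.5-fold in either direction, against 2.78% of all genes higher and 1.6% lower. Of all genes, 45.5% lay above 0.

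The regulators of respiratory genes had a median at 0 (-0.0001, 14 of 15 compared, 7 above 0, against 45.5% of all genes). The highest was CREB1, a cAMP-responsive transcription factor, with 11.9 and 33.8, a difference of 1.20 from 1 dim probe. The lowest was YY1, with 1602 and 1622, a difference of -0.29. NRF1 gave 23.0 and 34.1 (difference 0.27), and GABPA 37.1 and 39.4 (-0.22). TFAM, which packages mitochondrial DNA and takes part in its transcription, gave 599 and 676 (-0.13). The coactivator PPARGC1A was not well above background on either array.

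Other families of mitochondrial genes are given for comparison. The 77 mitochondrial ribosomal protein genes compared had a median of -0.05 and 68.8% of genes below 0, close to the -0.06 and 63.0% of the subunits. The 38 carriers of the SLC25 family had a median of -0.01 and 50% below 0. The interquartile range was 0.20 for the subunits, 0.12 for the ribosomal proteins, 0.30 for the carriers and 0.27 for all genes. The ends of the range order the families otherwise, since single genes reached -3.09 among the ribosomal proteins and 3.78 among the carriers, while the subunits ended at -0.44 and 0.90. No difference between the families was tested.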

How the data were processed

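RNA from HCT116 cells was measured on 1 Agilent single-color array per group. Per the file headers, the authors quantified the arrays with Feature Extraction 11.5.1.1 on a design annotated on hg19. The deposited files hold, for each spot, a linear intensity from which that software had already removed the background. The authors also deposited log2 values for 19461 probes, centered per probe, which matched the values used here (r = 0.99996 across the 17938 shared probes, which are not independent replicates).

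Outlier-flagged spots were left out, spots of a probe were averaged as log2, and each array was scaled to the 75th percentile of its non-control probes. Probes well above background on both arrays in over 50% of their spots were compared. A gene value is the mean over its probes. Accessions were named through RefSeq gene records of GRCh38.p14. An uneven zone is a spot with at least 10 well-measured neighbors within 4 rows and 4 columns, of which at least 2 and at least 10% differed 2-fold. The 1 array per group limits the precision, and no saturated spot occurred. Python 3.11.15, limma and pandas 2.3.3 were used, and the steps were tested on simulated data.

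Genes named are members at least 1.5-fold different, the extremes of each complex, members printed in 10 spots, with discordant probes or not detected, tissue forms and their partners, and the extremes of the other lists. Members, lists and rules were chosen with earlier results of these data known.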

Additional observations from a re-analysis of the deposited data

How the results depend on the processing

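No paired analysis was possible because each group has 1 array and no result comes from a test. The medians of all subunit genes, of complexes I, III and IV and of ATP synthase, all below 0 as reported, were above 0 with scaling to the median (0.03, 0.03, 0.08, 0.05 and 0.004), with scaling to the spike-ins and with normexp background correction (0.09, 0.07, 0.09, 0.15 and 0.06), and below 0 under the other alternatives. Scaling to the spike-ins raised all genes by 0.47 and gave medians of 0.40 for all subunit genes, 0.40 for complex I, 0.59 for complex II, 0.45 for complex III, 0.42 for complex IV, 0.37 for ATP synthase, 0.50 for assembly factors, 0.41 for electron carriers and coenzyme Q synthesis, 0.47 for the regulators and 0.45 for pyruvate dehydrogenase and the citric acid cycle, with 3.30 for HOXA5, 13 of the 81 subunit genes past 1.5-fold upward (against 24.9% of all genes) and 1 past 2-fold (against 3.34%). Scaling to the median raised all genes by 0.10 and gave 2 genes past 1.5-fold upward (against 4.17%) and 1 past 2-fold (against 0.900%). Counting probes gave 3 at least 1.5-fold higher (against 3.95% of probes), and subtracting the local median gave 2 (against 2.51% of genes). Normexp background correction gave 1.91 for HOXA5. The count of subunit genes at least 1.5-fold or 2-fold lower was 0 under every alternative. Relative to the median of all genes, the subunit median ran from -0.06 (quantile normalization) to 0.06 (normexp background correction), and was also above 0 with no filter (0.04). Of single genes, COX6B2 stood at 0.36 with no filter and UQCRH at -0.08 by its brightest probe. The cause of these changes was not tested. HOXA5 has no value with the filter on signals above the median of detected probes, which it did not pass.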

Other observations

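Probes for non-coding genes named after subunits were outside the comparison. NDUFA6-DT, which starts next to NDUFA6 in the opposite direction, had 4 probes, of which 1 was not well above background on either array. The others gave 20.3 and 27.6 (log2 difference 0.14), 15.6 and 22.6 (0.23), and 16.0 and 11.9 (-0.73), so probes for the same accession lay on both sides of 0. NDUFB2-AS1 gave 10.2 and 12.7, a difference of 0.01. The pseudogene UQCRBP1 gave 631 and 788 with 1 probe, a difference of 0.02, and was not well above background with the other.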
